A study of Homo sapiens with 2 samples.

Results

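The chromosome 19 miRNA cluster, or C19MC, is represented on the array of MKN1 human gastric cancer cells by 102 of its 1329 probes. Its members were taken by name, as every mature, passenger and precursor probe for miR-498, miR-512, miR-515 to miR-527, miR-1283 or miR-1323, whatever the suffix. They comprised 59 probes for mature miRNAs, passenger strands included, and 43 probes for precursors. Cells of this established line were cultured without transgene or drug, for 24 h under normoxia (20% O2) or under hypoxia (1% O2). Total RNA of each group was labeled with biotin and hybridized to 1 array, so that 2 arrays were compared. Neither condition had a replicate array, so no test was run and every value below describes these 2 arrays, whose number limits the precision. The values are linear, normalized signal intensities. No listed signal was below 20 on either array, and the remaining probes were given as 0, for which the sources used here give no meaning. Probes given as 0 on an array were therefore kept apart and have no fold change. RNA of whole cultures was measured, in which more cells with a miRNA and more of it per cell cannot be told apart.

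C19MC is a primate-specific array of closely related miRNA genes that lie in the same orientation on the long arm of chromosome 19. The cluster is imprinted, is expressed from the paternal allele in placental trophoblast and in embryonic stem cells, is silent in most adult tissues and is switched on in some tumours. Each gene gives a hairpin precursor, from which a 5p and a 3p mature strand are cut, and many of the 3p strands carry the AAGUGC core that is also found in the miR-302, miR-372 and miR-17 families. In the RefSeq annotation of GRCh38.p14 the 46 miRNA genes matched by name to these probes lay on the plus strand at chr19:53666679-53762430, over 95.8 kb. RefSeq held a sequence for 56 of the 59 mature entries and for 40 of the 43 precursors. The probe sequences were not used here, so the members are shown by their RefSeq RNA.

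The mature members with a signal on both arrays are shown first, since the fold changes rest on them. Capitals mark the seed, bases 2 to 8, which directs target recognition. miR-527 also had a signal on both arrays and is given by name only.
miR-521: aACGCACUucccuuuagagugu
miR-515-3p: gAGUGCCUucuuuuggagcguu
miR-518b: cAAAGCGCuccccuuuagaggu
miR-520d-3p: aAAGUGCUucucuuuggugggu
miR-520a-3p: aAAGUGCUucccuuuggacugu
miR-516b*: uGCUUCCUuucagagggu
miR-516a-3p: uGCUUCCUuucagagggu
miR-519d: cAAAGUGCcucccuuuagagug
miR-512-3p: aAGUGCUGucauagcugagguc
miR-518c*: uCUCUGGAgggaagcacuuucug
miR-525-3p: gAAGGCGCuucccuuuagagcg

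Most C19MC probes had no signal in MKN1 cells. Of the 102 probes, 60 (58.8%) were listed at 0 on both arrays, against 430 of the 1227 other probes (35.0%). A signal on both arrays was listed for 21 C19MC probes (20.6%), compared with 642 of the other probes (52.3%). A further 21 C19MC probes were listed under hypoxia only, and no member was listed under normoxia only. Thus 21 C19MC probes were listed under normoxia and 42 under hypoxia. With a signal counted only from 30 upwards these were 18 and 26, and from 50 upwards 16 and 23, so most of the additional probes were close to the lowest listed signal. Over the whole array the listing also grew, from 665 probes under normoxia to 837 under hypoxia. It grew from 631 to 715 with a signal counted from 30 upwards, and from 593 to 639 from 50 upwards. Of the 81 C19MC probes without a normoxia signal, 21 (25.9%) gained one under hypoxia, and 26.2% of all such probes of the array did.

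The members listed on both arrays lay low in the range of signals, although signals of different probes do not compare amounts of RNA. Their normoxia signals ran from 20.3 to 329 with a median of 75.3, while the median of all listed probes was 309. Their hypoxia signals ran from 28.3 to 388 with a median of 133, against 206 for all listed probes, which include those listed under hypoxia only. Over all 663 probes with a signal on both arrays the medians were 314 under normoxia and 357 under hypoxia. The normoxia signal was above the median of all listed probes of its array for 1 of the 21 members. The hypoxia signal was above that lower median of its array for 5. The summed signal of all members was 2097 under normoxia, 0.182% of the array's total. Under hypoxia it was 21218, or 3710 (0.370% of the total) when miR-526b was left out.

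Of the 21 members with a signal on both arrays, 19 were higher and 2 lower under hypoxia, where 56.3% of all 663 such probes of the array were higher. Over 2-fold higher were 5 members (23.8%) against 9.65% of all such probes, and none was over 2-fold lower, against 2.11%. The median log2 fold change of the members was 0.64, and that of all 663 probes was 0.14. Fold changes depended on signal over the whole array. With this dependence subtracted, 17 of the 21 members were higher, where 342 of all 663 probes were, and 3 members were over 2-fold higher, where 37 of all 663 probes were. The median was then 0.27 for the members and 0.019 for all probes. Its part in the members' shift was otherwise not tested.

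**Figure D1:**
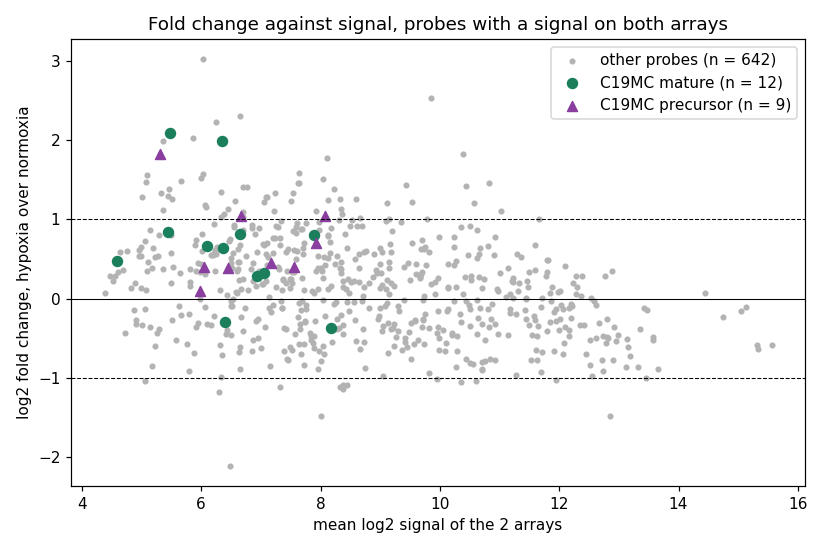
Log2 fold change of hypoxia over normoxia against the mean log2 signal of the 2 arrays, for the 663 probes listed on both. Each point is 1 probe, dashed lines mark 2-fold, and the 12 mature (circles) and 9 precursor (triangles) C19MC probes lie in the dimmer part of the plot, 19 of them above 0.

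Among the mature miRNAs, 10 of 12 were higher under hypoxia, where 53.5% of all mature probes with a signal on both arrays were, and 2 were over 2-fold higher, against 9.02%, and none over 2-fold lower, against 2.35%. miR-521, a 3p strand made from a pair of hairpins, rose from 21.7 under normoxia to 92 under hypoxia (4.25-fold). miR-515-3p had 41 under normoxia and 162 under hypoxia (3.96-fold). The normoxia signal of miR-521 was close to the lowest listed signal, and with 50 added to each signal its log2 fold change was 0.99, under the 2-fold threshold.

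The other mature members with a signal on both arrays changed by under 2-fold. miR-518b had 32.7 under normoxia and 58.3 under hypoxia (1.79-fold). miR-520d-3p had 75.3 and 133 (1.76-fold) and miR-520a-3p had 181 and 315 (1.74-fold). The latter pair carry the seed of miR-302 and miR-372, miRNAs of pluripotent cells, and their fold changes differed little.

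miR-516a-3p had 65.7 under normoxia and 102 under hypoxia, and miR-516b* had 54.3 and 86.3. miR-527 had 20.3 and 28.3, both close to the lowest listed signal. miR-519d, which has the seed of miR-17, had 119 under normoxia and 149 under hypoxia (1.25-fold), and miR-512-3p had 111 and 135 (1.22-fold). The direction of miR-512-3p turned under quantile normalization and with the signal dependence subtracted, and that of miR-519d turned under quantile normalization.

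Lower under hypoxia were miR-525-3p and miR-518c*. For miR-525-3p the signal was 329 under normoxia and 256 under hypoxia, a 1.29-fold decrease. miR-518c*, the 5p strand of its hairpin, had 93.7 under normoxia and 76.3 under hypoxia, a 1.23-fold decrease. Both were higher under hypoxia when the arrays were scaled on the 75th percentile of all their listed signals, which moved the median of all 663 probes to 0.69.

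**Figure D2:**
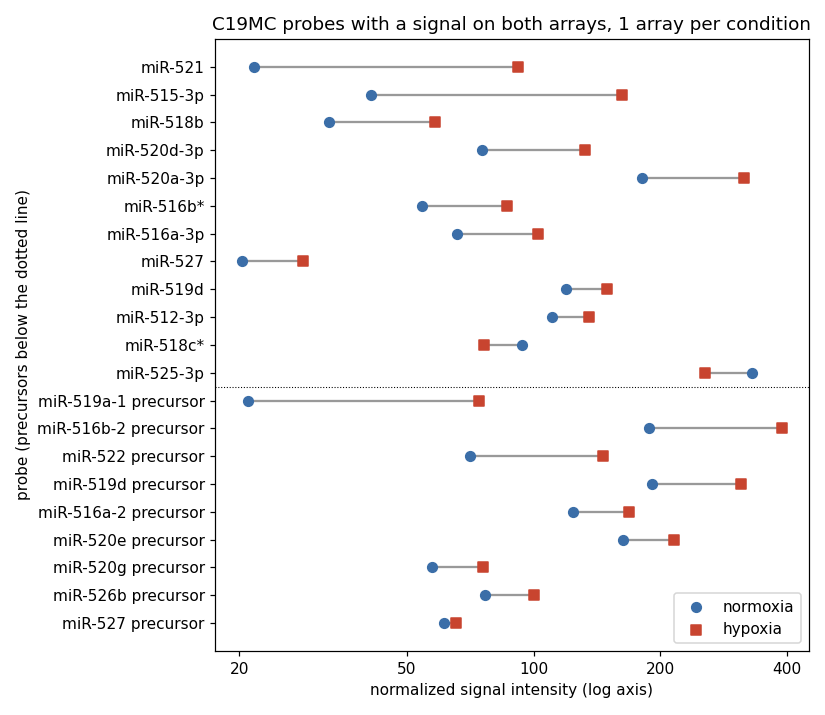
Normalized signal intensity on a log axis of the 21 C19MC probes with a signal on both arrays, 1 array per condition, with mature probes above the dotted line and precursors below. The hypoxia square lies to the right of the normoxia circle for 19 probes, and to the left for miR-518c* and miR-525-3p.

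All 9 precursors with a signal on both arrays were higher under hypoxia, where 65.4% of all 153 such precursor probes were. Over 2-fold higher were 3 of them, against 11.8%, and none was over 2-fold lower, against 1.31%. The miR-519a-1 precursor had 21 under normoxia and 74 under hypoxia (3.52-fold), the miR-516b-2 precursor had 188 and 388 (2.06-fold), and the miR-522 precursor had 70.7 and 146 (2.06-fold). The signal of the miR-519a-1 precursor under normoxia was next to the lowest listed signal, and with 50 added to each signal its log2 fold change was 0.80, under 2-fold. The miR-516b-2 and miR-522 precursors lay close to the threshold and fell below it under 5 other settings, which were centring on the median, quantile normalization, subtraction of the signal dependence, and 16 or 50 added to each signal.

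The 6 other precursors differed by under 2-fold. The miR-519d precursor had 191 under normoxia and 310 under hypoxia (1.63-fold). The miR-516a-2 precursor had 124 and 169 (1.36-fold), and the miR-520e precursor had 163 and 215 (1.32-fold). The miR-520g (57.3 and 75.7), miR-526b (76.7 and 100.3) and miR-527 (61.3 and 65.3) precursors were between 1.07-fold and 1.32-fold higher. The miR-527 precursor was the least changed, and its direction turned under centring on the median, quantile normalization or subtraction of the signal dependence.

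The share of probes with a signal on both arrays was 20.3% for mature members and 20.9% for precursors. Over the rest of the array it was 60.7% for mature probes and 35.4% for precursors. The 12 mature members had a median log2 fold change of 0.65 and the 9 precursors of 0.45, where all such mature probes of the array had 0.076 and all such precursors 0.28. The kinds differed more among probes that were at 0 under normoxia. A signal appeared under hypoxia for 7 of 47 mature members (14.9%), against 23.4% of all such mature probes, and for 14 of 34 precursors (41.2%), against 29.7% of all such precursors. This contrast rested on signals under 30. With a signal counted only from 30 upwards, 4 of 49 mature members (8.16%) and 4 of 35 precursors (11.4%) had one under hypoxia only, against 15.8% of all such mature probes and 9.80% of all such precursors. At 0 on both arrays were 40 mature members (67.8%) and 20 precursors (46.5%).

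A signal of a precursor was often not accompanied by one of its own mature strands, and the reverse. The same count over the rest of the array was not taken, so whether this is particular to the cluster was not tested. Levels of different probes are not comparable, so only listing and fold changes are set side by side. Of the 9 hairpins whose precursor had a signal on both arrays, 4 (those of miR-519d, miR-516b-2, miR-527 and miR-516a-2) also had a mature strand with a signal on both. For miR-519d the log2 fold change was 0.32 for the mature strand and 0.70 for the precursor, and for miR-527 it was 0.48 and 0.091. The miR-520g, miR-522 and miR-519a-1 precursors had signals on both arrays while every mature probe of these hairpins was at 0 on both. In the other direction, 9 of the 20 precursors at 0 on both arrays belonged to hairpins with a mature strand listed on both, among them miR-521, miR-515-3p, miR-518b and miR-518c*. A mature probe was counted at every hairpin that encodes it, so miR-512-3p, miR-515-3p and miR-521 each entered for both of their hairpins. miR-516a-3p was counted with both the miR-516a-1 and the miR-516a-2 precursor. Which copy gave such a mature signal cannot be told. The precursors of miR-520a, miR-520d and miR-525, whose 3p strands had a signal on both arrays, were at 0 under normoxia and at 23.7, 24.7 and 24 under hypoxia. For 10 hairpins the precursor and all mature probes were at 0 throughout.

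**Figure D3:**
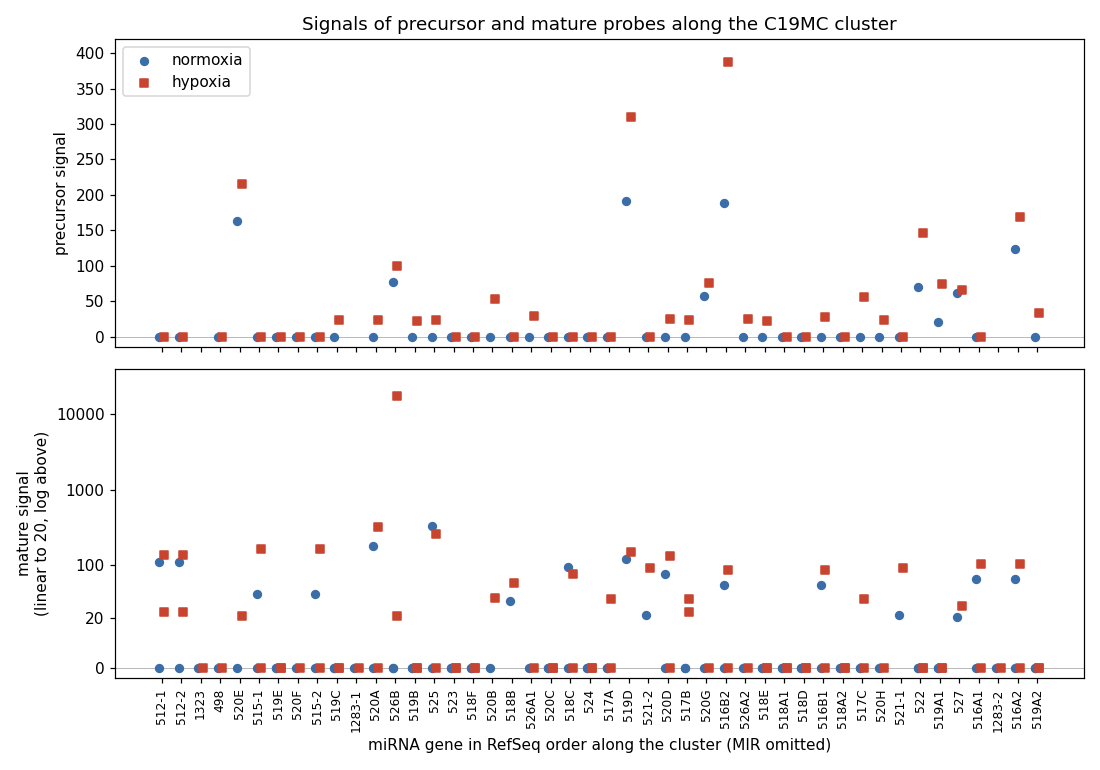
Signals of precursor probes (upper panel, linear axis) and mature probes (lower panel, linear to 20 and log above) for the 46 miRNA genes in their RefSeq order, with a mature probe drawn at each gene that encodes it. Circles are normoxia and squares hypoxia, and miR-526b at 17508 under hypoxia stands above all other members.

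Along the cluster, precursors with a signal on both arrays were found more often in the later genes. Among the first 23 genes of the RefSeq order 2 of 21 precursor probes, miR-520e and miR-526b, had a signal on both arrays, and among the last 23 genes 7 of 22 had one. These 7 include the miR-519a-1 precursor, at 21 under normoxia and so next to the lowest listed signal. They also include the miR-516a-2 precursor, whose near-identical copy miR-516a-1, also among the last 23 genes, was at 0 on both arrays. The neighbours MIR522, MIR519A1 and MIR527 were the only run of 3 adjacent genes whose precursors all had a signal on both arrays. Precursors with a signal under hypoxia only were spread over both stretches, 6 in the first and 8 in the last. The genes MIR371A, MIR372 and MIR373, known from pluripotent cells, follow the cluster after a gap of 25.2 kb. miR-373 had 1631 under normoxia and 1281 under hypoxia, miR-371-5p had 827 and 567, miR-372 had 86.3 and 112, and miR-371-3p was at 0 on both arrays. Of these 3 listed neighbours, 2 were thus lower under hypoxia, the direction of 2 of the 21 listed C19MC members. Both lower neighbours had higher signals than any of these members, while miR-372, within their range, was higher under hypoxia. The part of the signal dependence in this difference was not tested.

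The mature members were listed mostly through their 3p strands. Of 30 entries for 3p strands, 10 (33.3%) had a signal on both arrays, 4 under hypoxia only and 16 none. Of 26 entries for 5p strands, 1 (3.85%), miR-518c*, had a signal on both arrays, 3 under hypoxia only and 22 none. These are counts of entries, not of different RNAs. The 22 include sets of 3 and of 6 entries with the same sequence, and the 10 include 2 such entries. The shares by strand over the rest of the array were not taken. The 3 entries without a RefSeq sequence were assigned to neither arm, and 1 of them, miR-527, had a signal on both arrays. The median GC content was 45.5% for the 3p and 50% for the 5p entries, with a median length of 22 bases for both. Mature members with a signal on both arrays had a median GC content of 50%, and those at 0 on both had 48.8%. For precursors these medians were 44.4% and 44.8%. Whether probe design had a part in the difference between strands was not tested.

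Entries that share a mature sequence show how far probes for the same RNA differed within an array. In RefSeq 4 sequences were shared by 13 entries of the array.
miR-516a-3p and miR-516b*: uGCUUCCUuucagagggu
miR-517a and miR-517b: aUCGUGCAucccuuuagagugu
miR-518d-5p, miR-520c-5p and miR-526a: cUCUAGAGggaagcacuuucug
miR-518e*, miR-519a*, miR-519b-5p, miR-519c-5p, miR-522* and miR-523*: cUCUAGAGggaagcgcuuucug
The signals of miR-516a-3p were 1.21-fold those of miR-516b* under normoxia and 1.18-fold under hypoxia. Their log2 fold changes, 0.64 and 0.67, differed by 0.029. The 3 entries of the third sequence and the 6 of the fourth were at 0 on both arrays. miR-517a was at 0 on both arrays, while miR-517b was at 0 under normoxia and at 23.7 under hypoxia, so entries of the same RNA differed in listing near the lowest listed signal. These entries are no replicates of a condition.

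Of 8 pairs of hairpins that are copies with the same name, 4 were at 0 for both copies on both arrays, 1 was listed under hypoxia only for both copies, and 3 differed in listing between the copies. The RefSeq hairpins of miR-516a-1 and miR-516a-2 are both 90 bases long and differ by 1 substitution, C8U, counted from the 5′ end with the base of miR-516a-1 first and shown in capitals.
miR-516a-1 precursor: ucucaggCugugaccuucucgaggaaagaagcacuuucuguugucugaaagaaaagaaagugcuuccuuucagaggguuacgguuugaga
miR-516a-2 precursor: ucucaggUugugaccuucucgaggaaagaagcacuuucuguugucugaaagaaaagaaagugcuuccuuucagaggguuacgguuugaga
The miR-516a-1 precursor was at 0 on both arrays, and the miR-516a-2 precursor had 124 under normoxia and 169 under hypoxia. The sequences of the other pairs that differed are of unequal length. The miR-516b-1 precursor was at 0 and 28, where the miR-516b-2 precursor had 188 and 388. The miR-519a-1 precursor had 21 and 74, and the miR-519a-2 precursor had 0 and 33.3. The hairpins of miR-515-1 and miR-515-2, which are identical in RefSeq, were both at 0 on both arrays, as were those of miR-512, miR-518a and miR-521. The precursors of miR-526a-1 and miR-526a-2 were alike, at 0 under normoxia and at 29.7 and 25.3 under hypoxia. How well the probes tell such copies apart was not tested, so values of near-identical copies are uncertain.

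The 56 mature entries with a sequence fell into 28 seed groups, and 9 of these held a member with a signal on both arrays. The largest group, with the seed UCUAGAG, consisted of 10 5p strands and had no signal on either array. The seed AAGUGCU was shared by miR-520a-3p, miR-520b, miR-520c-3p, miR-520d-3p and miR-520e. miR-520a-3p and miR-520d-3p had a signal on both arrays. miR-520b was at 0 under normoxia and 36.7 under hypoxia, miR-520e was at 0 and 21, and miR-520c-3p was at 0 on both. Of the 7 miRNAs outside the cluster with this seed, all had a signal on both arrays, 6 were higher and 1 lower under hypoxia, and their median log2 fold change was 0.38. miR-302d, with 1099 under normoxia and 3011 under hypoxia (2.74-fold), was the only one of them over 2-fold, and miR-373 was the lower one.

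The seed AAAGUGC was carried by miR-519d and miR-526b*. The 6 miRNAs outside the cluster with this seed, of the miR-17 family that promotes proliferation, were all lower under hypoxia (median log2 fold change -0.49). They were miR-17 (9624 and 6629), miR-20a (4254 and 2663), miR-20b (7459 and 5286), miR-93 (11413 and 10538), miR-106a (4758 and 4379) and miR-106b (5448 and 3917). miR-519d (119 and 149) was higher as deposited, though not after quantile normalization. With the signal dependence subtracted its log2 fold change was 0.011. The 6 other miRNAs had far higher signals than miR-519d, and the part of the signal dependence in this difference was not tested. miR-526b* was at 0 and 21. The seed AAGUGCA of miR-519a, miR-519b-3p and miR-519c-3p, strands reported to repress the RNA-binding protein HuR, had no signal on either array. The AAAGCGC group had a signal for miR-518b and none for miR-518a-3p, miR-518c and miR-518d-3p.

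miR-526b differed from all other members. It stood at 0 under normoxia and at 17508 under hypoxia, the eighth highest of the 837 signals on that array and 1.75% of its total. No fold change can be given against a listed 0. Among the 174 probes of the array listed under hypoxia only it was the highest, and the next was miR-431* at 201. Under hypoxia miR-526b accounted for 17508 of the 21218 units of summed C19MC signal. miR-526b is the 5p strand of its hairpin, at chr19:53694393-53694475 on the plus strand of GRCh38.p14, in which capitals mark the 5p and the 3p strand.
miR-526b precursor: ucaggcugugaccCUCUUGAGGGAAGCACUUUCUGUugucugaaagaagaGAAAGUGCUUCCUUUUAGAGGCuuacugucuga
The 3p strand, miR-526b*, was at 0 under normoxia and 21 under hypoxia. The precursor had 76.7 under normoxia and 100.3 under hypoxia, a log2 fold change of 0.39. The rise from 0 to 17508 was thus seen with the 5p probe and with neither of the other probes of the same hairpin.

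The members with the most similar RNA had little or no signal. In the lines below capitals mark the seed of miR-526b and, for the other miRNAs, the bases that differ from it in an ungapped alignment.
miR-526b: cUCUUGAGggaagcacuuucugu
miR-518d-5p, miR-520c-5p and miR-526a: cucuAgagggaagcacuuucug
miR-518c*: ucucuGgagggaagcacuuucug
miR-518f*: cucuAgagggaagcacuuucuC
miR-518e*, miR-519a*, miR-519b-5p, miR-519c-5p, miR-522* and miR-523*: cucuAgagggaagcGcuuucug
miR-518d-5p, miR-520c-5p and miR-526a differ from miR-526b over 22 bases by U5A alone, counted from the 5′ end of miR-526b with its base first, and were at 0 on both arrays. miR-518c*, shifted by 1 base, also has 1 difference over 22 bases, and had 93.7 under normoxia and 76.3 under hypoxia. Of the 11 members with 1 or 2 differences, 10 were at 0 on both arrays and the highest hypoxia signal was 76.3. Among 2246 mature miRNAs of RefSeq outside the cluster, the closest had 7 differences. The signal of miR-526b was thus not shared by the probes named for sequences that differ from it in 1 base. It rests on 1 array and has no replicate check. Values of single spots were not used here, so whether a faulty spot contributed to the 17508 was not tested.

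**Figure D4:**
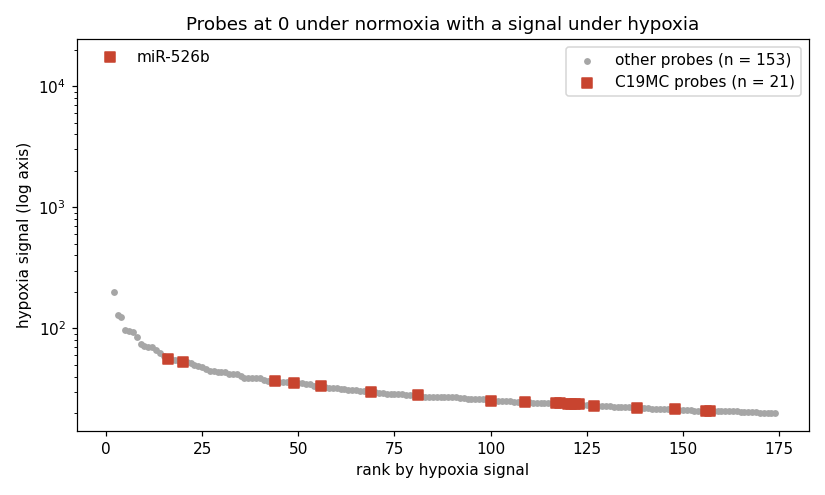
Hypoxia signal, on a log axis, of the 174 probes listed at 0 under normoxia and with a signal under hypoxia, ranked from the highest. Squares are the 21 C19MC probes, of which miR-526b stands at 17508 and the other 20 lie between 21 and 56, among the 153 other probes (grey).

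The other 20 members with a signal under hypoxia only lay between 21 and 56, with a median of 24, where the median of all such probes without miR-526b was 27. The highest were the precursors of miR-517c (56) and miR-520b (53), followed by miR-520b (36.7), miR-517* (35.7), the miR-519a-2 precursor (33.3) and the precursors of miR-526a-1 (29.7), miR-516b-1 (28), miR-526a-2 (25.3) and miR-520d (24.7). Of all 21 such members 15 had a signal under 30. For the hairpins of miR-520b and miR-517b, the precursor and every mature probe were listed under hypoxia only, at 53 and 36.7 for miR-520b and its mature strand, and at 23.7 for both the miR-517b precursor and miR-517b.

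As a check of the cells, all 7 epithelial miRNAs of the miR-200 family, miR-203 and miR-205 had a signal on both arrays, from 93.3 to 1203 under normoxia. Of 4 gastrointestinal miRNAs, 3 had a signal on both arrays and miR-375 was at 0 under normoxia and 70.7 under hypoxia. miR-451, typical of red blood cells, was at 0 on both arrays, while 3 of 5 miRNAs of blood cells, 4 of 4 of muscle and miR-122 of liver had a signal on both, up to 1171 under normoxia. All 5 miRNAs of the miR-302 cluster, typical of pluripotent cells, had a signal on both arrays, with a sum of 2641 under normoxia and 4821 under hypoxia, mostly through miR-302d, which went from 1099 to 3011. miR-210, a miRNA induced by hypoxia in many cell types, had 383 under normoxia and 2219 under hypoxia. The part of these markers in the C19MC signals was not tested.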

How the data were processed

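RNA of MKN1 cells was hybridized to a GenoSensor human miRNA array (miRBase v13 content per the labels). The authors processed the scans in GeneSpring GX (version not stated in the labels or methods) with global normalization, and deposited linear signal intensities. Both deposited tables held exactly equal signals, with no tolerance, for 1329 of 1329 probes. The deposited columns of the authors' own ratio, test p-value and detection call were not used.

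Members, lists and rules were chosen with earlier results of these data known. Fold changes were calculated for probes with a signal on both arrays, with no pseudocount or filter, and the threshold was 2-fold. Named were all members with a signal on both arrays, the 10 highest of those listed on 1 array only, the strands and precursor of the brightest member, entries of identical sequence, and miRNAs sharing a seed or standing in the marker lists. Others were chosen after their values were seen. Array names were matched to RefSeq by hand, so that a name without an arm was read as the strand of that name in older miRBase versions. Sequences were compared without gaps at shifts of up to 2 bases. To subtract the dependence of fold change on mean log2 signal, a lowess curve (span 0.4) was used. The scripts were tested on simulated data, with an assumed noise. Python 3.11.15, numpy 2.4.6, pandas 2.3.3, statsmodels 0.14.6 and matplotlib 3.10.9 were used.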

Additional observations from a re-analysis of the deposited data

How the results depend on the processing

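No paired analysis was possible because each condition had 1 array. A shift of a median by over 0.1 on the log2 scale was counted as a move. The number of C19MC probes over 2-fold higher (5, beside 64 of all 663 probes) and their median log2 fold change (0.64) were 3 and 0.50 with median centring (47 of all probes), 3 and 0.23 under quantile normalization (37), 3 and 0.27 with the signal dependence subtracted (37), 3 and 0.53 with 16 added to each signal (45), 1 and 0.39 with 50 added (24), and 8 and 0.84 after scaling on the total signal (104). With signals of 0 read as 20 they were 8 and 0.42 over 42 members, beside 99 of 839 probes. After scaling on the 75th percentile of the listed signals they were 13 and 1.19, beside 205 of all probes and a median of 0.69, and the hypoxia array lists more dim probes, which lowers that percentile. Among the 414 probes whose higher signal was above the median of its array, 5 members were left. Of these 1 was over 2-fold higher, beside 33 of all 414 probes. However, 4 of these 5 members passed only through the hypoxia array, where they were higher, so that count supports nothing. The count was 11 at 1.5-fold and 3 at 3-fold. The counts over all probes at these thresholds were not taken, so both stand without a reference. No member was over 2-fold lower under any of these settings. Of all 663 probes 14 were as deposited, and few were under the other settings, from 1 after 75th percentile scaling to 32 with median centring. Added after the data were seen, scaling on the total without miR-526b gave 8 and 0.86 (109 of all probes), and the 75th percentile over the 663 probes gave 5 and 0.66 (67).

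The direction turned for the miR-527 precursor when centred on the median (-0.045), under quantile normalization (-0.30) and with the signal dependence subtracted (-0.28), for miR-512-3p under quantile normalization (-0.054) and with the dependence subtracted (-0.041), for miR-519d (-0.036) and the miR-526b precursor (-0.0088) after quantile normalization, and for miR-518c* (0.26) and miR-525-3p (0.19) after 75th percentile scaling. Of 147 values of single members under 7 planned settings, the equal second table left out, 115 kept their direction and side of the threshold, 12 fell below it, 11 rose above it and 9 turned. Members with a signal under hypoxia only (21) were 8, 7 and 6 when a signal counted from 30, 50 and 100 upwards. Of the members below the cut-off under normoxia these were 9.52%, 8.14% and 6.38%, against 13.2%, 7.34% and 6.57% over the whole array. The counts under hypoxia only include members whose listed normoxia signal fell below the cut-off. From 100 upwards, 8 of 102 members had a signal on both arrays, beside 494 of all 1329 probes. Of the 21 members listed under hypoxia only as deposited, all except miR-526b were at 56 or lower. Filters, thresholds and added constants change values by construction, and for the other settings the cause was not tested.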
